A study of Homo sapiens with 6 samples.

Results

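The miR-17 and miR-18 seed families are 8 mature microRNAs (miRNAs) of closely related sequence that are encoded in 3 paralogous gene clusters. The assays hsa-miR-17, hsa-miR-18a, hsa-miR-18b, hsa-miR-20a, hsa-miR-20b, hsa-miR-93, hsa-miR-106a and hsa-miR-106b were taken by name from a quantitative PCR card that held 377 human miRNA assays, and all 8 were on it. A miRNA is a short RNA, cut from a hairpin, that guides Argonaute proteins to messenger RNAs. Its seed, bases 2 to 8 from the 5′ end, provides most of the pairing with the target, so miRNAs that share a seed share many targets. The cluster that runs from miR-17 to miR-92a inside the host gene MIR17HG, also called oncomiR-1, is a polycistron in which the hairpins are cut from 1 primary transcript. It is induced by MYC and is known for lowering the cell cycle inhibitor CDKN1A, the apoptosis factor BCL2L11 and members of the E2F family. The miR-106a-363 cluster inside MIR106AHG and the miR-106b-25 cluster inside MCM7 are its vertebrate duplicates, and the 3 clusters are called here by their host genes.

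All samples were HEK-293FT cells, an established line derived from human embryonic kidney that carries the SV40 large T antigen and divides quickly. Of the 6 samples, 3 had received small interfering RNA (siRNA) against TruB1, a pseudouridine synthase of transfer RNA that the study is known to have examined for its part in let-7 maturation, and 3 were labelled control with no further account of their treatment. Each title carries a series number from 1 to 3, used as the replicate number, and neither the time after transfection nor the level of TruB1 was analysed here. The measured value is the threshold cycle (Ct), the number of PCR cycles a well needed to reach a fixed fluorescence, and an earlier Ct means more template. The labels do not say that the samples of a group came from separate cultures, so p-values measure the spread between these samples, which may be technical.

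The sequences show how little separates the members, and the paralogs are placed next to each other below. Capitals mark the seed, and the RefSeq sequence equals the assay target sequence in the deposited table for 8 of 8 members.
miR-17: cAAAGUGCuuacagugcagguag
miR-106a: aAAAGUGCuuacagugcagguag
miR-20a: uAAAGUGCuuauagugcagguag
miR-20b: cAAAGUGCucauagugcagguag
miR-106b: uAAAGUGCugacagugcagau
miR-93: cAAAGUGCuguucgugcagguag
miR-18a: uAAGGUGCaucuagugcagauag
miR-18b: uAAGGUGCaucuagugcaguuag

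There were 2 seeds, 1 shared by the 6 members of the miR-17 family and 1 by the 2 members of the miR-18 family. Positions are counted from 1 at the 5′ end, with the first-named miRNA's base first. From miR-17 to miR-18a the seed differs by A4G alone, and the other bases by C1U, U9A, A11C, C12U and G20A. Outside the seed, miR-106a differs from miR-17 by a single base (C1A), and miR-18b from miR-18a by a single base as well (A20U). From miR-20a to miR-20b the changes are U1C and U10C, and from miR-17 to miR-20a they are C1U and C12U. Within the miR-17 family, both members of the MCM7 cluster stand farthest from miR-17. The changes from miR-17 to miR-106b are C1U, U10G and G20A over its 21 bases, and to miR-93 U10G, A11U, C12U and A13C. Whether an assay also picks up its near-identical paralog was not tested, so values of miR-17 and miR-106a, and of miR-18a and miR-18b, are uncertain as measures of 1 miRNA each.

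Coordinates are those of RefSeq on GRCh38.p14. On the plus strand of chromosome 13, inside the long non-coding host gene MIR17HG, lie miR-17 (chr13:91350618-91350640), miR-18a (chr13:91350756-91350778) and miR-20a (chr13:91351072-91351094). On the minus strand of the X chromosome, inside the non-coding gene MIR106AHG, lie miR-106a (chrX:134170244-134170266), miR-18b (chrX:134170084-134170106) and miR-20b (chrX:134169850-134169872). On the minus strand of chromosome 7, inside the DNA replication gene MCM7, whose intron carries the cluster, lie miR-106b (chr7:100094043-100094063) and miR-93 (chr7:100093815-100093837). From the first to the last mature RNA measured on the card, the MIR17HG cluster spanned 765 bases, the MIR106AHG cluster 885 bases and the MCM7 cluster 493 bases.

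A Ct under 35 was obtained for 188 to 226 of the 377 assays per sample, and 157 assays were under 35 in all 6 samples. Mean Ct of U6 small nuclear RNA, the reference, rested on 2 to 4 determined wells per sample and ran from 12.15 in control sample 3 to 15.45 in knockdown sample 2. Within a sample the U6 wells spanned from 0.36 cycles in knockdown sample 3 to 2.77 in control sample 1. In control sample 3 the 2 determined wells were 1.82 cycles apart. Mean Ct of the 157 commonly detected assays ran from 25.87 to 26.59 in control and from 26.18 to 27.71 in knockdown. Of 9 miRNAs that mark liver, neurons, muscle, blood, smooth muscle or fibroblasts, 8 gave a Ct in at least 1 sample, none before 27.43. Of these, miR-133a and miR-223 gave a Ct in 6 of 6 samples, and miR-124a, miR-142-3p and miR-145 in 5. The others, miR-1, miR-143 and miR-451, gave a Ct in 3, 2 and 1. The liver marker miR-122 was undetermined in every sample. Their summed ratio to U6 was 2.61e-05 to 0.000296 in control and 1.83e-05 to 0.000242 in knockdown, and their part in the results was not tested. No miRNA that defines HEK-293FT was listed, so the label was checked against markers of other cells alone.

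All 48 wells of the 8 members gave a Ct, between 16.25 and 27.41. The earliest members were miR-17 and miR-106a, each the first miRNA of its cluster. The Ct of miR-17 over series 1, 2 and 3, the order used throughout, was 16.25, 16.65 and 16.63 in control and 17.61, 18.28 and 17.75 in knockdown. All its knockdown values were later than its control values, as they were for 14.9% of the 161 assays determined in every sample. Taken without a reference as minus Ct, where a negative change is a later Ct, all assays tested moved by a median of -1.0. The Ct of miR-106a was 16.69, 17.29 and 16.52 in control and 16.58, 18.17 and 17.72 in knockdown, and its groups overlapped. In every sample, miR-17, miR-106a and their cluster partner miR-19b were the 3 earliest of the 157 commonly detected assays.

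The other member of the MIR17HG cluster with the same seed, miR-20a, had a Ct of 17.66, 18.83 and 19.81 in control and 18.89, 19.73 and 20.98 in knockdown, and ranked between 4 and 10 of 157. Its X-linked paralog miR-20b had a Ct of 22.85, 23.71 and 22.83 in control and 24.13, 24.79 and 25.34 in knockdown, with ranks from 32 to 43. For both, the sample of series 3 was the latest of the knockdown samples. Of the control samples it was the latest for miR-20a and the earliest for miR-20b.

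Members with the miR-18 seed were later. The Ct of miR-18a was 21.87, 23.28 and 22.53 in control and 21.65, 23.77 and 24.78 in knockdown, and that of miR-18b was 24.37, 25.66 and 24.69 in control and 23.74, 26.44 and 27.41 in knockdown. For both, knockdown sample 1 was the earliest of the 6 samples and knockdown sample 3 the latest, so that the knockdown values enclosed the control values.

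Of the members inside MCM7, miR-93 had a Ct of 20.77, 21.44 and 21.73 in control and 20.62, 22.72 and 23.67 in knockdown. The Ct of miR-106b was 21.49, 22.81 and 22.26 in control and 22.21, 24.84 and 24.47 in knockdown. Knockdown sample 1 was the earliest of the 6 for miR-93 but not for miR-106b, where control sample 1 was.

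**Figure D1:**
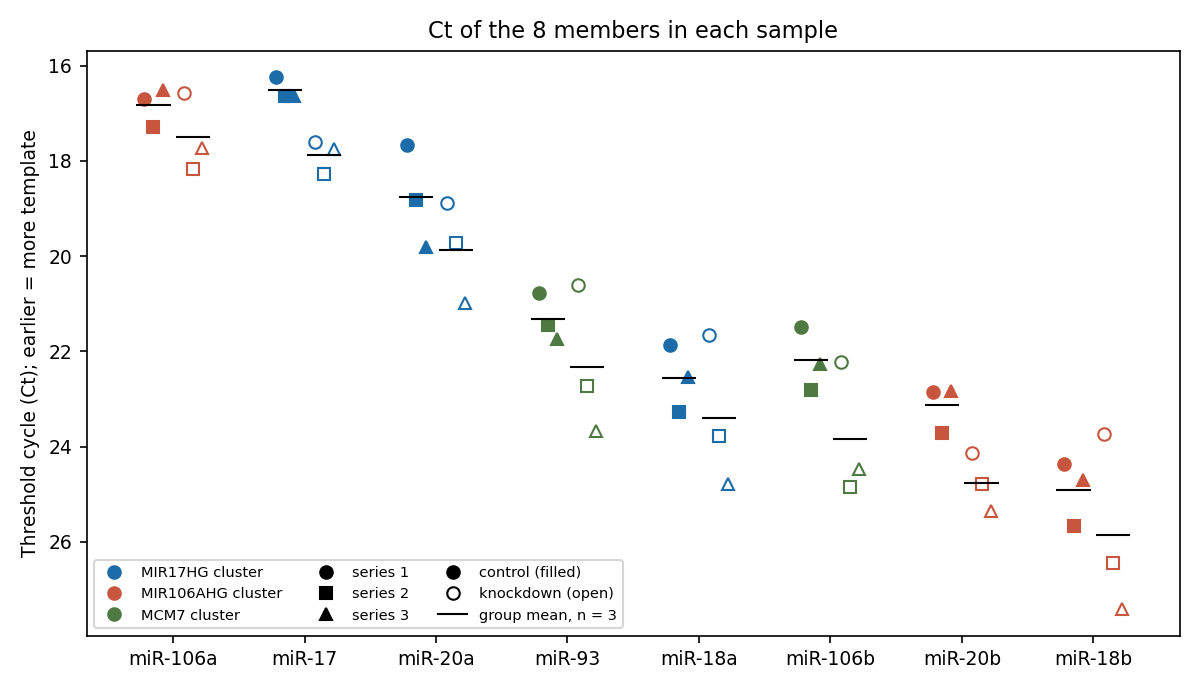
Threshold cycle (Ct, vertical axis, earlier at the top) of the 8 members in each sample, with filled points for control, open points for TruB1 knockdown, shapes for the series number, colours for the cluster and bars for group means (n = 3). The miR-17 and miR-106a points lie between Ct 16.25 and 18.28, and the knockdown and control points do not overlap for miR-17 and miR-20b, a separation held by 14.9% of 161 assays.

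Relative to U6, the log2 ratio averaged over the 6 samples placed the members in the order miR-106a (-3.09 ± 1.18, SD), miR-17 (-3.12 ± 1.16), miR-20a (-5.24 ± 2.00), miR-93 (-7.75 ± 1.89), miR-18a (-8.91 ± 1.86), miR-106b (-8.94 ± 1.68), miR-20b (-9.87 ± 1.37) and miR-18b (-11.31 ± 1.93). The assays may differ in efficiency, so an order of levels between assays is approximate. Neighbours in the order were compared by their Ct gap within a sample, from which U6 cancels. Of the 7 neighbouring gaps, 2 were smaller than their SD over the 6 samples: miR-17 against miR-106a (0.03 ± 0.58 cycles) and miR-106b against miR-18a (0.03 ± 0.63 cycles). The gap from miR-17 to miR-20a was 2.12 ± 0.90 cycles, from miR-20a to miR-93 2.51 ± 0.56 and from miR-93 to miR-18a 1.16 ± 0.36, each with the same sign in 6 of 6 samples. From miR-106b to miR-20b it was 0.93 ± 0.67 and from miR-20b to miR-18b 1.44 ± 0.92, each with that sign in 5 of 6.

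Taken at full efficiency, where 1 cycle is a 2-fold difference, miR-17 and miR-106a together made up 78.3% to 93.2% of the summed ratio of the 8 members. By cluster, the MIR17HG members held 39.8% to 63.8% of it, the MIR106AHG members 33.6% to 55.8% and the MCM7 members 1.20% to 4.47%. Nearly all of the MIR106AHG share was the miR-106a assay (33.2% to 55.1%), while miR-20b held 0.240% to 0.599% and miR-18b 0.0572% to 0.385%. Whether the miR-106a and miR-17 assays pick up each other's target was not tested, so the split between the MIR17HG and MIR106AHG shares is uncertain.

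The paralogs of the MIR17HG and MIR106AHG clusters stood at very different distances. The gap of miR-20b behind miR-20a over control samples 1, 2 and 3 was 5.19, 4.88 and 3.02 cycles, and over the knockdown samples 5.25, 5.06 and 4.36, a mean of 4.63 ± 0.85 (SD, n = 6). The gap of miR-18b behind miR-18a was 2.50, 2.37 and 2.16 in control and 2.09, 2.67 and 2.63 in knockdown, a mean of 2.40 ± 0.24. The gap of miR-106a behind miR-17 was 0.45, 0.64 and -0.11 in control and -1.03, -0.11 and -0.02 in knockdown, a mean of -0.03 ± 0.58. The miR-20 and miR-18 gaps kept 1 sign in 6 of 6 samples and the miR-106a gap was above 0 in 2 of 6. Of the 3 pairs, miR-106a and miR-17 alone had a mean gap within its spread. Whether the assays tell these paralogs apart was not tested.

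Within the MCM7 cluster, miR-93 preceded miR-106b in 6 of 6 samples, by 0.72, 1.37 and 0.53 cycles in control and 1.60, 2.12 and 0.80 in knockdown. Compared with miR-17, miR-106b crossed the threshold 5.82 ± 0.81 cycles later (SD, n = 6), in 6 of 6 samples.

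**Figure D2:**
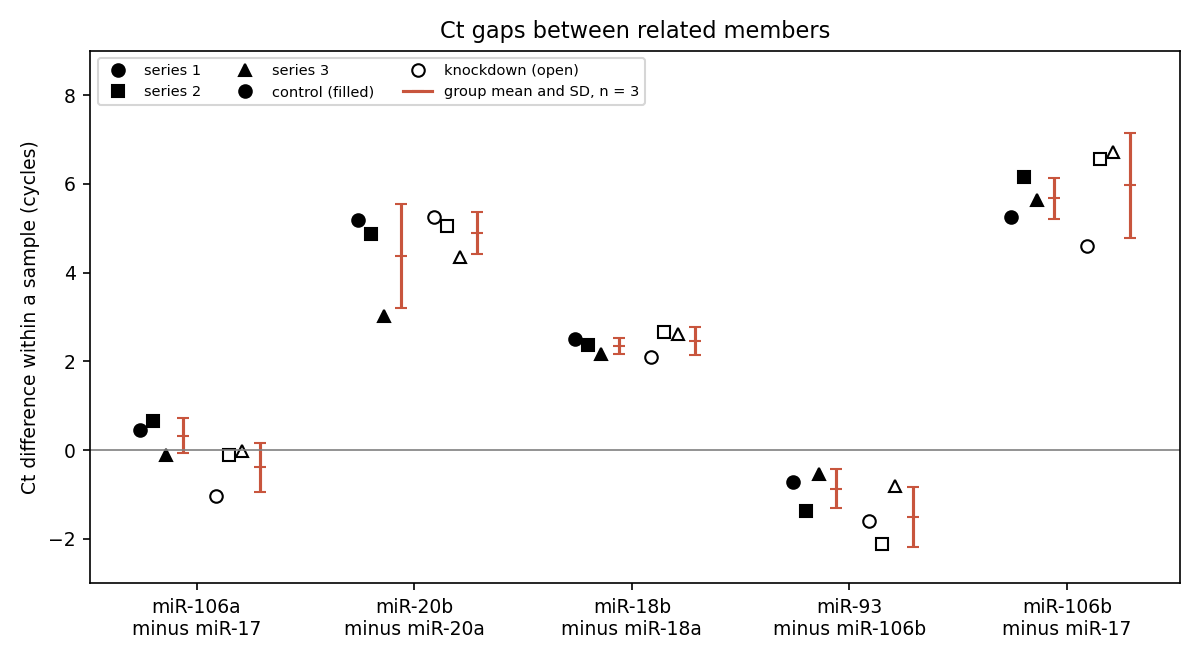
Ct difference within a sample (vertical axis, cycles) for 5 pairs of related members, with filled points for control, open points for knockdown, shapes for the series number and red bars for the group mean and SD (n = 3). The gap of miR-106a to miR-17 lies around 0, whereas miR-20b trails miR-20a by 3.02 to 5.25 cycles and miR-18b trails miR-18a by 2.09 to 2.67.

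The levels relative to U6 were lowest in series 3 in both groups. For 8 of 8 members both samples of series 3 had the lowest log2 ratios to U6 of all samples, and the mean of series 1 was the highest. The mean of the commonly detected assays relative to U6 had the same pattern, so it was not particular to the members. For miR-17 the log2 ratio in series 1, 2 and 3 was -1.51, -2.67 and -4.48 in control and -2.73, -2.83 and -4.50 in knockdown. The U6 Ct moved with this, at 12.15 and 13.25 in the samples of series 3 and 13.97 to 15.45 in the others. How much of the series difference lies in U6 was not tested.

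Knockdown was compared with control to ask whether loss of TruB1 changes the members. Of the 8 members, 0 passed an adjusted p of 0.05 in limma (group as the only term, Benjamini-Hochberg over 195 assays tested, adjusted p = 0.999 for each), where 0% of the assays tested passed. At an unadjusted p under 0.05 limma gave 0 of 8 members and 0 of 195 assays, and with the series number as a block 0 of 8 members and 5.29% of 189 assays. The log2 fold change, with its standard error, was largest for miR-106b (-0.75, SE 1.47) and miR-20b (-0.72, SE 1.46), followed by miR-17 (-0.46, SE 1.46). It was 0.25 (SE 1.46) for miR-106a and -0.20 (SE 1.48) for miR-20a, and nearer to 0 for miR-93 (-0.11, SE 1.48), miR-18a (0.07, SE 1.47) and miR-18b (-0.05, SE 1.48). Each of these is smaller than the SD of the log2 ratio in either group, which for miR-106b was 1.69 in control and 1.94 in knockdown (n = 3 each). The median over the members was -0.15, against -0.10 over all assays tested, and 6 members were lower, where 59.5% of the assays tested were. The directions relative to U6 turned with single samples, and the median of all assays tested turned with them. Without knockdown sample 3 all 8 members were higher (0.11 to 1.39), where the median of all assays was 0.76. Without control sample 1, 7 were higher (-0.02 to 0.97, all assays 0.58). All 8 were lower without control sample 3 (-1.52 to -0.33, all assays -0.74) and without knockdown sample 1 (-1.74 to -0.38, all assays -0.81).

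Because samples of the same series number deviated together, the difference within each series number was also taken for every member. Of the members, miR-106b was lower in knockdown in all 3 series with either reference. Relative to U6 its log2 difference was -0.58, -0.56 and -1.11 in series 1, 2 and 3, a mean of -0.75 ± 0.31 (SD, n = 3), and relative to the mean of the commonly detected assays it was -0.41, -0.91 and -0.51, a mean of -0.61 ± 0.27. The same direction in all 3 series downward was held by 19.3% of the 161 assays determined in every sample relative to U6, and by 11.8% relative to the commonly detected assays. Upward it was held by 4.35% relative to U6, and by 0 of the members. With the series number as a block, limma gave miR-106b an unadjusted p of 0.118 and an adjusted p of 0.971 over 189 assays relative to U6. Relative to the commonly detected assays its adjusted p in the blocked limma fit was 0.979, so miR-106b was not called with either reference.

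The opposite pattern was held by miR-106a with the second reference. Its log2 level relative to the commonly detected assays was 9.17, 9.30 and 9.41 in control and 9.60, 9.54 and 9.90 in knockdown. The 3 knockdown values lay above the 3 control values, as they did for 3.11% of 161 assays. Within series 1, 2 and 3 the difference was 0.43, 0.24 and 0.49, a mean of 0.38 ± 0.13 (SD, n = 3), and 11.8% of assays were higher in all 3 series. Relative to U6 the differences of miR-106a were 0.26, 0.60 and -0.11 and its groups overlapped, with a fitted change of 0.25. With quantile normalization it was 1.18 (adjusted p = 0.996 in limma). Taken as minus raw Ct the change turned to -0.66. All assays tested moved by a median of -1.0 on that scale, so miR-106a was later in knockdown by less than the median assay. With the block, limma gave it an adjusted p of 0.990 relative to U6. Relative to the commonly detected assays the blocked limma fit gave 0.38 (SE 0.41, adjusted p = 0.979).

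For miR-17 the difference relative to U6 was -1.22, -0.15 and -0.02, lower in 3 of 3 series but almost entirely in series 1. Relative to the commonly detected assays it was -1.05, -0.51 and 0.58, so that series 3 turned. By raw Ct alone, miR-17 and miR-20b were the members whose knockdown values (17.61 to 18.28 and 24.13 to 25.34) were all later than their control values (16.25 to 16.65 and 22.83 to 23.71). Such a separation was seen in 14.9% of 161 assays. As minus Ct, all assays tested moved by a median of -1.0, which is also later in knockdown.

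**Figure D3:**
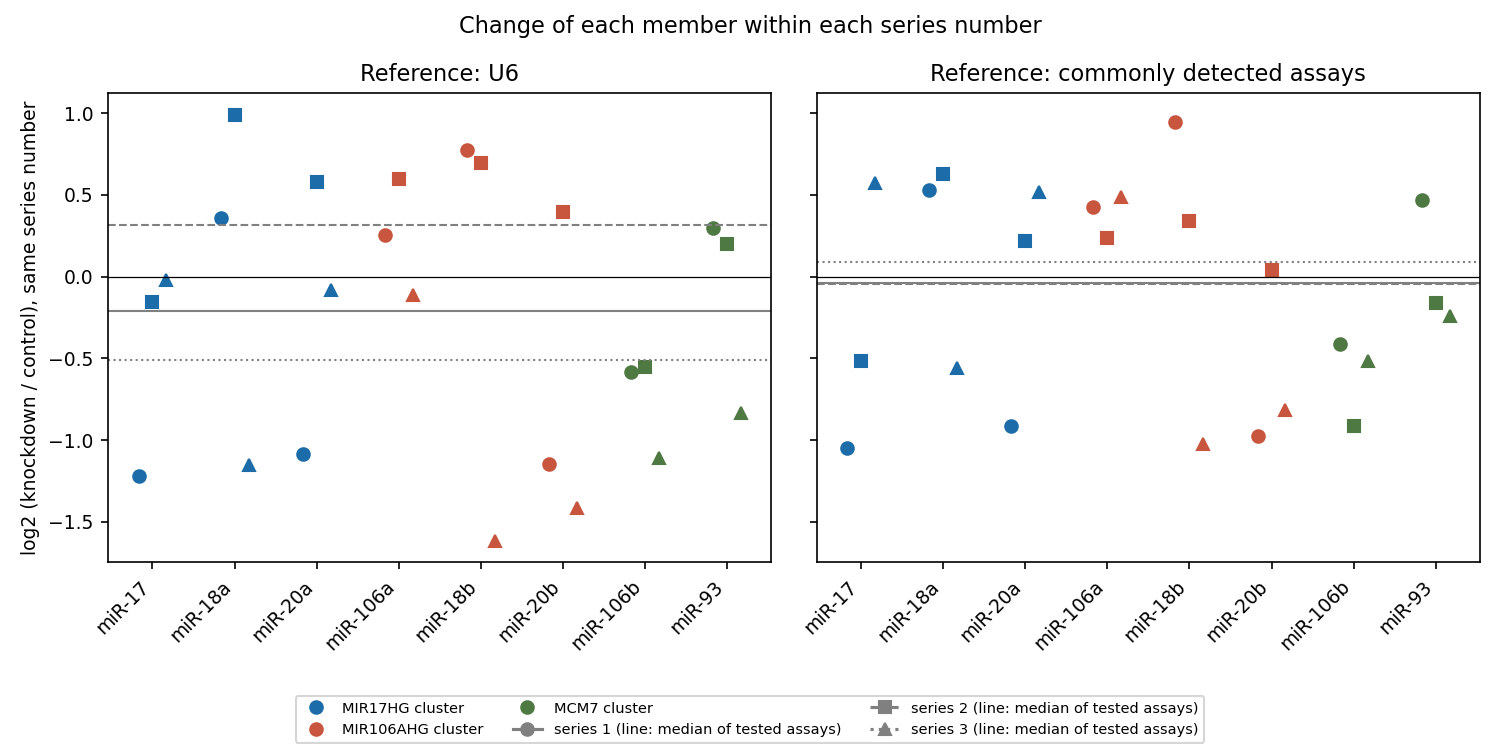
Log2 of knockdown over control within each series number (vertical axis) for each member, relative to U6 (left) and to the mean of the commonly detected assays (right). Shapes give the series, colours the cluster and grey lines the median of all assays tested. The points of miR-106b lie below 0 in both panels and those of miR-106a above 0 in the right panel alone.

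The measured differences of the members of 1 cluster did not share 1 pattern across the series numbers. Each value sets 1 well against 1 well, so well error cannot be separated from a difference between members. In series 1, miR-17 and miR-20a were lower by U6 (-1.22 and -1.09) while miR-18a, whose hairpin lies between theirs, was higher (0.36). In series 3 the order was turned, with miR-18a at -1.15 and miR-17 and miR-20a at -0.02 and -0.08. The X-linked miR-18b followed the signs of miR-18a in every series (0.77, 0.70 and -1.62, against 0.36, 0.99 and -1.15), and its gap to miR-18a changed by -0.41, 0.29 and 0.46 cycles. These signs were not particular to the pair, since miR-106a (0.26, 0.60 and -0.11) and miR-93 had them too, and the other members did not. Likewise miR-93 was at 0.30, 0.20 and -0.84, whereas miR-106b of the same cluster was below 0 throughout. The difference of miR-20b was -1.14, 0.40 and -1.41, the lowest of the X-linked members in series 1. By U6 the spread among the 8 members was 1.99 in series 1, 1.55 in series 2 and 1.60 in series 3, between the lowest and the highest member. In series 1 there were 4 lower and 4 higher members, in series 2 there were 2 lower and 6 higher, and in series 3 all 8 were lower, with medians over all tested assays of -0.21, 0.32 and -0.51.

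Compared as clusters, the distances of control and knockdown samples overlapped. The mean log2 level of miR-106b and miR-93 minus that of miR-17, miR-18a and miR-20a was -2.54, -2.54 and -2.34 in control and -2.03, -3.19 and -2.90 in knockdown. As knockdown minus control, this gap changed by -0.23, above the SD in control (0.11) and below that in knockdown (0.60, n = 3 each), and by 0.50, -0.65 and -0.56 within the series numbers. The mean of miR-106a, miR-18b and miR-20b minus that of the same MIR17HG members was -2.71, -2.63 and -1.69 in control and -2.10, -2.54 and -2.32 in knockdown. That gap changed by 0.02, below the SD in control (0.57) and in knockdown (0.22, n = 3 each), and by 0.61, 0.09 and -0.63 within the series numbers. Taking only miR-106a against miR-17, the pair closest in sequence, the change was 0.71, with 1.47, 0.75 and -0.09 within series 1, 2 and 3, so it rested mainly on series 1. Among neighbours in the order of levels, the gap of miR-106b to miR-18a, which differ in seed, changed most, by 0.82 cycles. This gap was -0.38, -0.47 and -0.27 cycles in control and 0.56, 1.07 and -0.31 in knockdown, and the groups overlapped. Thus miR-106b was the earlier of the pair in 3 of 3 control samples and in 1 of 3 knockdown samples.

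The clusters also encode 5 measured miRNAs of other seeds: miR-19a, miR-19b and miR-92a, miR-363, and miR-25. In limma 0 of the 5 reached an adjusted p of 0.05 (0 higher, 0 lower) and 0 an unadjusted p of 0.05, and their median log2 fold change was 0.07. Those of the MIR17HG cluster fell on both sides of the split among the members. The paralog pair miR-19a and miR-19b differed in series 1, where miR-19a was at -1.34 and miR-19b at 0.30 relative to U6. In series 2 they were at 0.79 and 0.96, and in series 3 at 0.03 and -1.05. Thus miR-19a had the values nearest to those of miR-20a (-1.09, 0.58 and -0.08), and miR-19b those nearest to miR-18a. Mature miR-19b and miR-92a are encoded in both the MIR17HG and the MIR106AHG cluster, and the assay cannot assign them to either. The difference of miR-92a was -5.82 in series 1, from the late Ct of 28.04 in knockdown sample 1, and 0.79 and -0.13 in the others. On the X chromosome, miR-363, the last miRNA of its cluster, was detected late (Ct 29.71 to 33.45) and changed by 1.10, 1.39 and -1.69. These are the signs of miR-18b, but also of miR-18a, miR-106a, miR-93 and miR-19b. At the end of the MCM7 cluster, miR-25 changed by 0.98, 0.33 and -0.75, the signs of miR-93 and not of miR-106b.

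**Figure D4:**
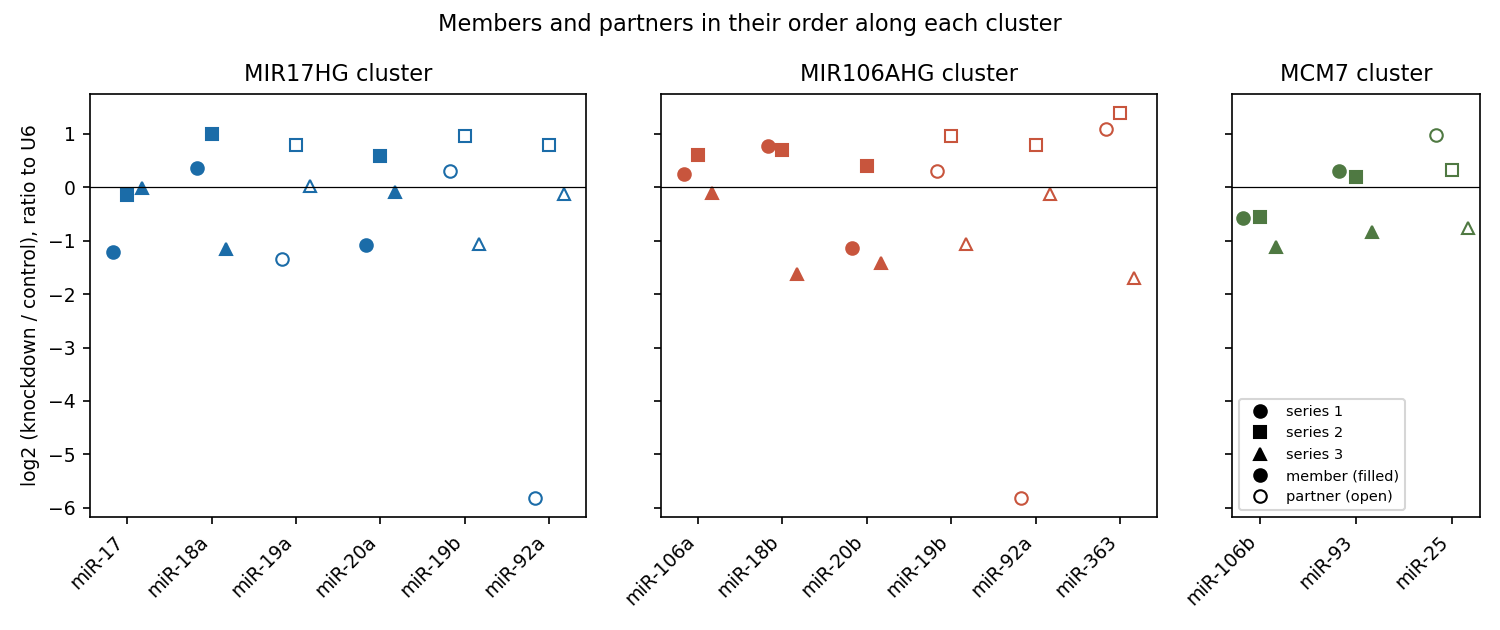
Log2 of knockdown over control relative to U6 within each series number (vertical axis) for the miRNAs of each cluster in their order along the transcript, with filled points for members and open points for partners of another seed. miR-19b and miR-92a are drawn in both clusters that encode them. In series 1 (circles) miR-17, miR-19a and miR-20a lie between -1.34 and -1.09, and miR-18a and miR-19b at 0.36 and 0.30.

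Among the assays outside both lists, miR-519d alone shares a member's seed by its RefSeq sequence, which could be looked up for 322 of the 377 assays. Its Ct was 35.95 in control sample 1 and 33.33, 35.77 and 32.78 in knockdown samples 1, 2 and 3, and undetermined in control samples 2 and 3. It was under 35 in 2 of 6 samples and was not tested.

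The mean of the 8 members relative to the commonly detected assays was 5.62, 5.38 and 5.06 in control and 5.50, 5.37 and 4.86 in knockdown, lowest in both samples of series 3. Of 153 other assays determined in every sample, those most alike over the 6 samples were miR-125b (Pearson r = 0.967), miR-100 (r = 0.945) and miR-101 (r = 0.926), with a median of -0.07 over the 153. These values describe 6 points that share cards and series numbers. Among the cluster partners the same r was 0.817 for miR-25, 0.583 for miR-19a, 0.438 for miR-363, 0.05 for miR-19b and -0.292 for miR-92a.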

How the data were processed

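MicroRNAs were measured by TaqMan array cards in 3 control and 3 knockdown samples. Reverse transcription of total RNA used Megaplex Pool A primers, followed by 40 PCR cycles, per the labels, and the deposited raw score of each well is its Ct; threshold and baseline settings are not given in the sources used here. The authors deposited 1 ratio to U6 per assay, recovered from 1266 wells as 2 to the power of mean U6 Ct minus assay Ct, to within 6.8e-06 in log2 units. A card gives 1 well per assay, so well error and sample difference cannot be separated, and U6 moves every assay of a sample together.

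The log2 ratio was tested in limma 3.58.1 (R 4.3.3, lmFit and eBayes, two-sided, group as the only term). A check on simulated data required only that fitted changes correlate with planted ones. It set no requirement on missed or false calls, so it lends no weight to an absence of calls. Undetermined wells were missing. An assay was tested with a Ct under 35 in at least 3 samples and 2 determined values per group. Gaps between assays, cluster means and orders are descriptions with no test.

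Members and lists were chosen with earlier results of these data known. Assays named are the 8 members, their 5 cluster partners, assays sharing a member's seed, U6, the 3 assays most alike and the cell type markers. Samples of the same series number correlated in their deviations from group means at r = 0.416, 0.527 and 0.625 over 161 assays, above the 0.1 required. The series numbers were therefore treated as pairs, which no label states. Control sample 1 with knockdown sample 2 (r = 0.249) and control sample 2 with knockdown sample 1 (r = 0.129) also exceeded 0.1. Pairs of series 3 with another series ran from -0.342 to -0.536, so series 1 and 2 were less clearly separated.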

Additional observations from a re-analysis of the deposited data

How the results depend on the processing

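In limma, 0 assays reached an adjusted p of 0.05 in each alternative that kept all samples, with 0 to 13 assays at an unadjusted p under 0.05 (10 of 189, 5.29%, with the replicate block, none of them a member). When samples or whole series were left out it ran from 0 to 6, the 6 coming from the blocked fit without series 3, where 0 of 8 members passed. With the replicate block no call changed, and the adjusted p of the members ran from 0.971 to 0.990. The median of the members was lowest at -1.16, with control sample 3 left out, and highest at 1.00, with knockdown sample 3 left out. The median of all assays tested went the same way in these fits, to -0.74 and 0.76. With 1 sample left out, the change in the gap was -0.57 to 0.0070 for the MCM7 cluster, the latter when knockdown sample 2 was dropped, and -0.16 to 0.35 for the MIR106AHG cluster. With the closest pair alone they were -0.55 and 0.71, and with quantile normalization -0.13 and 0.27. Of 72 values of single members with a sample or series left out, 23 reversed, in 8 of 8 members, beside shifts of the median of all assays from -0.10 to between -0.81 and 0.76: the range was -1.26 to 0.22 for miR-17, -0.38 to 1.00 for miR-106a, -1.45 to 1.00 for miR-20a, -1.30 to 0.21 for miR-20b, -0.98 to 1.39 for miR-18a, -1.29 to 1.36 for miR-18b, -1.74 to 0.20 for miR-106b and -1.15 to 1.19 for miR-93. Of 72 values under other alternatives, 8 reversed. With the commonly detected assays as reference miR-18b was at 0.087 and miR-93 at 0.023, with and without the block. By minus raw Ct, which carries the shift of all assays (-1.0), miR-18a was at -0.84 and miR-106a at -0.66. With quantile normalization miR-20a was at 0.19 and miR-93 at 0.26, and miR-106a moved to 1.18. The cause was not tested. The median of U6 wells turned no member. No Ct limit, wells at Ct 40, Ct under 35 in all samples and the block alone could not move the fold change of a member. Every member had a Ct under 35 in every sample, so these values were fixed in advance. The 8 of 72 is therefore no measure of stability.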
